A study of Saccharomyces cerevisiae with 13 samples.

Results

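The 10 genes described here encode the core enzymes that make and break down the storage carbohydrates of budding yeast: PGM2, TPS1, TPS2, TSL1, NTH1, GSY1, GSY2, GLC3, GPH1 and GDB1. They were chosen by function from the 5446 protein-coding genes of *S. cerevisiae* on the array, with earlier results of these data known. The only measured value in the choice was the mean signal that picks the brightest probe set of a gene, and it decided nothing here because each of the 10 genes has 1 probe set. Their mRNA levels were measured on 13 Affymetrix yeast 2.0 arrays of total RNA from haploid cultures grown to mid-log phase in rich medium at 30 °C. Labels of the deletion arrays give tR(CCU)J, tM(CAU), tL(GAG)G, tR(UCU)M2 and tH(GUG)G1, with 2 biological replicates each, and 3 arrays are of wild type. The study gives MATα Y5565 as the background of its deletion library and names no other for the wild-type control. In its stated genotype CAN1 and the α-factor gene MFα1 are replaced by the cassettes MFA1pr-HIS3 and MFα1pr-LEU2, LYP1 is deleted, and ura3Δ0 and leu2Δ0 are carried. In each deletion strain a hygromycin-resistance cassette stands in place of 1 nuclear tRNA gene, and the wild-type control carries the same marker upstream of another tRNA gene. Following the study, ΔtR(CCU)J, ΔtM(CAU) and ΔtL(GAG)G are called SC (single-copy) and ΔtR(UCU)M2 and ΔtH(GUG)G1 MC (multi-copy). The tM(CAU) label does not say which gene copy was removed, and the study's expression set has the initiator gene tiM(CAU)C. The study describes that gene as 1 of the copies of the initiator tRNA. It placed the strain in SC because its growth under DTT was improved, as in the single-copy deletions. SC is thus not a class by copy number alone.

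Trehalose is built from UDP-glucose and glucose 6-phosphate by the trehalose synthase complex, in which Tps1 makes trehalose 6-phosphate, Tps2 removes the phosphate and Tsl1 is a regulatory subunit. Glycogen is built from UDP-glucose by the synthases Gsy1 and Gsy2 and branched by Glc3. Nth1, the neutral trehalase, splits trehalose, while Gph1, the phosphorylase, and Gdb1, the debranching enzyme, take glycogen apart. Yeast cells accumulate both carbohydrates when glucose runs low or under stress, and many of these genes are activated by the transcription factors Msn2 and Msn4 and kept low by protein kinase A during growth on glucose.

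Signals are given as log2 of the deposited intensity, and differences as log2 differences of strain means. The array also carries probe sets for fission yeast, whose 95th percentile (signal 12.9 to 21.5) served as background, and all 10 genes exceeded it on all 13 arrays, by at least 1.87 on the log2 scale. The α-cell markers STE3, SAG1 and MF(ALPHA)2 had log2 signals of 10.16 to 13.10 over all arrays, as is usual for MATα cells, with their lowest strain means in ΔtR(CCU)J. MF(ALPHA)1, deleted in the stated genotype, had log2 signals of 12.44 to 12.80 on the 6 SC arrays, against 2.79 to 4.53 on the 4 MC arrays and 2.54 to 4.89 in wild type. The SC strains thus differ from both other groups in more than the tRNA gene, and the 2 differences cannot be told apart, whereas a comparison of ΔtR(CCU)J with the other SC strains sets strains against each other that are alike in MF(ALPHA)1. The study compared each strain with wild type of its own batch, but the sources used here do not name the batches. By correlation over genes, replicate 1 of the SC strains lay nearest to wild-type replicate 1, replicate 1 of the MC strains to wild-type replicate 2, and replicate 2 of all 5 strains to wild-type replicate 3.

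In ΔtR(CCU)J, 6 of the 10 genes were called higher than in wild type and 0 lower (limma, adjusted p under 0.05), against 6.63% of all genes called higher and 1.93% called lower (361 and 105 genes, which became 75 and 153 with each array centred on its median). The called genes were the supply gene PGM2, the 3 trehalose synthase genes TPS1, TPS2 and TSL1, the glycogen synthase gene GSY2 and the phosphorylase gene GPH1. All 10 log2 differences were positive, as were those of 3652 of the 5446 genes, although that of GSY1 was -0.02 after quantile normalization. The median of the 10 was 1.0, where the median of all genes was 0.17. Both ΔtR(CCU)J arrays lay above all 3 wild-type arrays for 8 of the 10 genes, as they did for 31.6% of all genes, and below them for 0, as for 12.5% of all genes. In bulk cultures, more mRNA per cell and more cells that express a gene cannot be told apart.

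**Figure D1:**
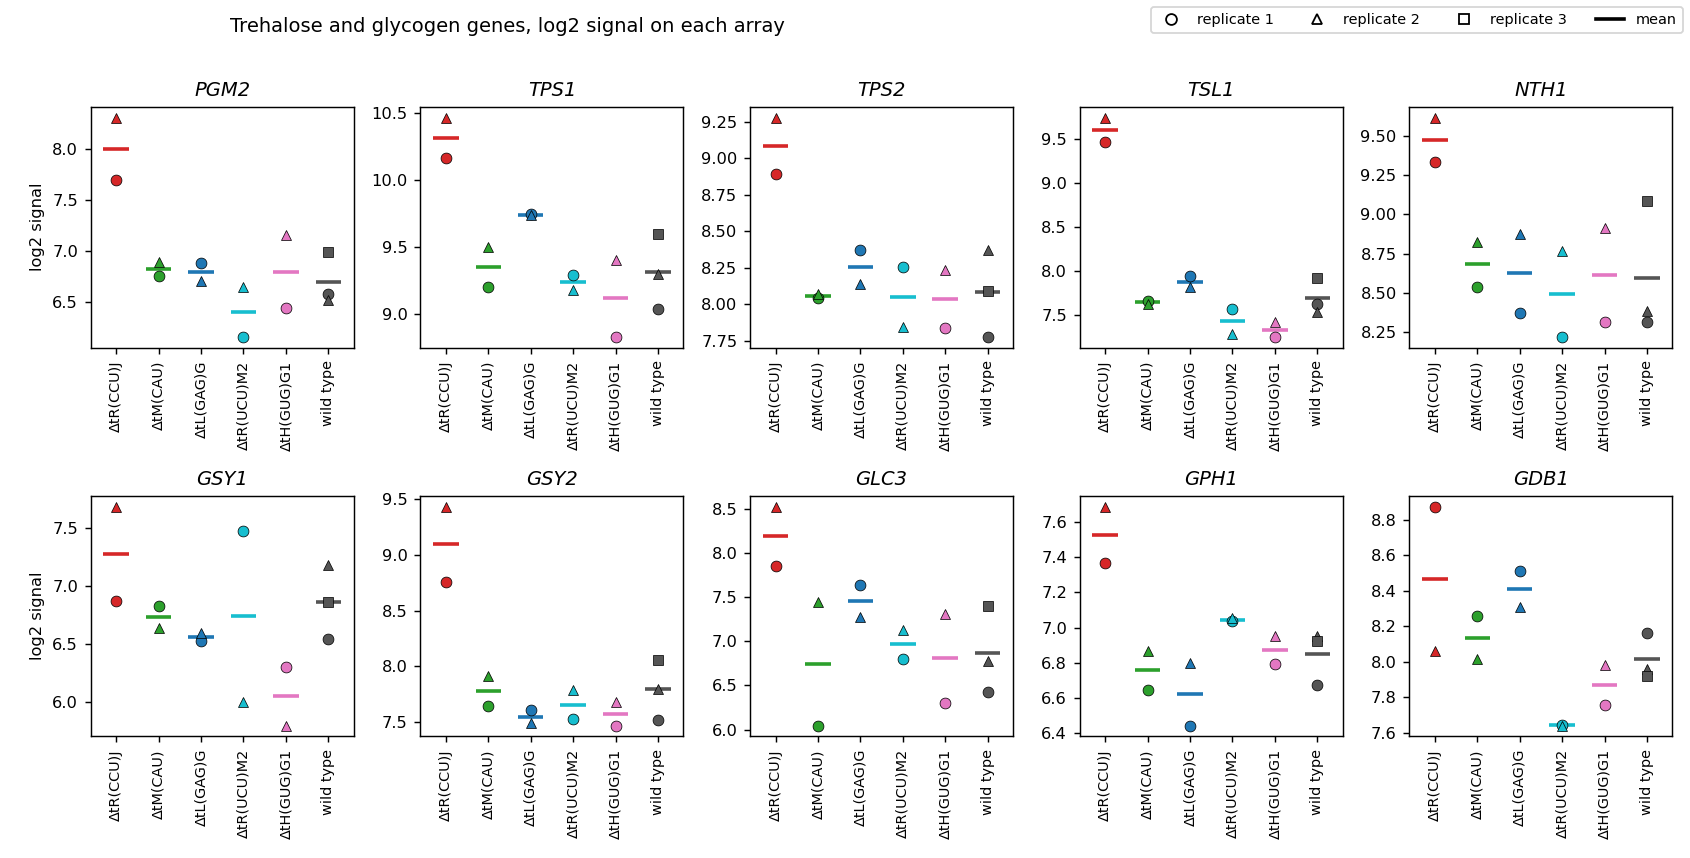
Log2 signal (vertical axis, a scale per gene) of the 10 genes on each of the 13 arrays, by strain; symbols mark the replicate number and bars the strain mean. Both ΔtR(CCU)J arrays stand above all other arrays for 8 genes, while for GSY1 and GDB1 arrays of other strains reach into their range.

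PGM2 encodes the major phosphoglucomutase, which feeds glucose 6-phosphate toward UDP-glucose. Its log2 signals were 7.70 and 8.31 in ΔtR(CCU)J, against 6.58, 6.52 and 6.99 in wild type. The lower ΔtR(CCU)J array was still above the highest wild-type array. The log2 difference was 1.31 (standard error 0.26, adjusted p = 0.0258, limma), a 2.47-fold change.

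Among the trehalose synthase genes, the regulatory subunit gene TSL1 changed most. TSL1 had log2 signals of 9.47 and 9.74 in ΔtR(CCU)J, against 7.63, 7.53 and 7.92 in wild type, so that the 2 sets of arrays lay far apart. Its log2 difference of 1.91 (standard error 0.15, adjusted p = 0.000735, limma), or 3.75-fold with a 95% interval of 2.95 to 4.76, ranked 26 from the highest among the 5446 genes. The catalytic subunit genes moved less. TPS1 gave log2 signals of 10.16 and 10.46 in ΔtR(CCU)J, against 9.04, 9.30 and 9.60 in wild type, and a log2 difference of 1.0 (standard error 0.21, adjusted p = 0.0271, limma). TPS2 gave 8.89 and 9.28 in ΔtR(CCU)J, against 7.78, 8.38 and 8.09 in wild type, also with a log2 difference of 1.0 (standard error 0.21, adjusted p = 0.0287, limma). Neither gene overlapped between the strains. On the breakdown side, the trehalase gene NTH1 had log2 signals of 9.33 and 9.61 in ΔtR(CCU)J, against 8.31, 8.38 and 9.08 in wild type. These do not overlap, with wild-type replicate 3 the highest of its strain, and the log2 difference of 0.88 (95% interval 0.23 to 1.53) missed the threshold (adjusted p = 0.0851, limma).

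The 2 glycogen synthase genes gave different values. GSY2, which encodes the predominant isoform, had log2 signals of 8.76 and 9.43 in ΔtR(CCU)J, against 7.52, 7.80 and 8.06 in wild type. Its arrays did not overlap, and the log2 difference was 1.30 (standard error 0.22, adjusted p = 0.0165, limma), or 2.46-fold. GSY1, the minor isoform, had log2 signals of 6.87 and 7.68 in ΔtR(CCU)J, against 6.55, 7.18 and 6.86 in wild type. The first ΔtR(CCU)J array fell within the wild-type range, and the log2 difference of 0.41 had a 95% interval from -0.48 to 1.31. Whether the responses of the 2 genes differ was not tested. For the branching enzyme gene GLC3, log2 signals were 7.85 and 8.52 in ΔtR(CCU)J, against 6.43, 6.77 and 7.40 in wild type. The strains did not overlap, and the log2 difference of 1.32 (95% interval 0.30 to 2.34) had an adjusted p of 0.0929 in limma. GLC3 spread widely within strains, with SDs of log2 signal of 0.23 to 0.99 over the 6 strains.

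Of the 2 genes of glycogen breakdown, the phosphorylase gene GPH1 had log2 signals of 7.37 and 7.69 in ΔtR(CCU)J, against 6.67, 6.95 and 6.92 in wild type. It showed the smallest log2 difference of the 6 called genes, 0.68 (standard error 0.16, adjusted p = 0.0360, limma), or 1.60-fold, with no overlap between strains. The debranching enzyme gene GDB1 had log2 signals of 8.87 and 8.06 in ΔtR(CCU)J, against 8.16, 7.96 and 7.92 in wild type. Here the ΔtR(CCU)J replicates disagreed, the second lay below wild-type replicate 1, and the log2 difference of 0.45 was not called (95% interval -0.03 to 0.93).

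**Figure D2:**
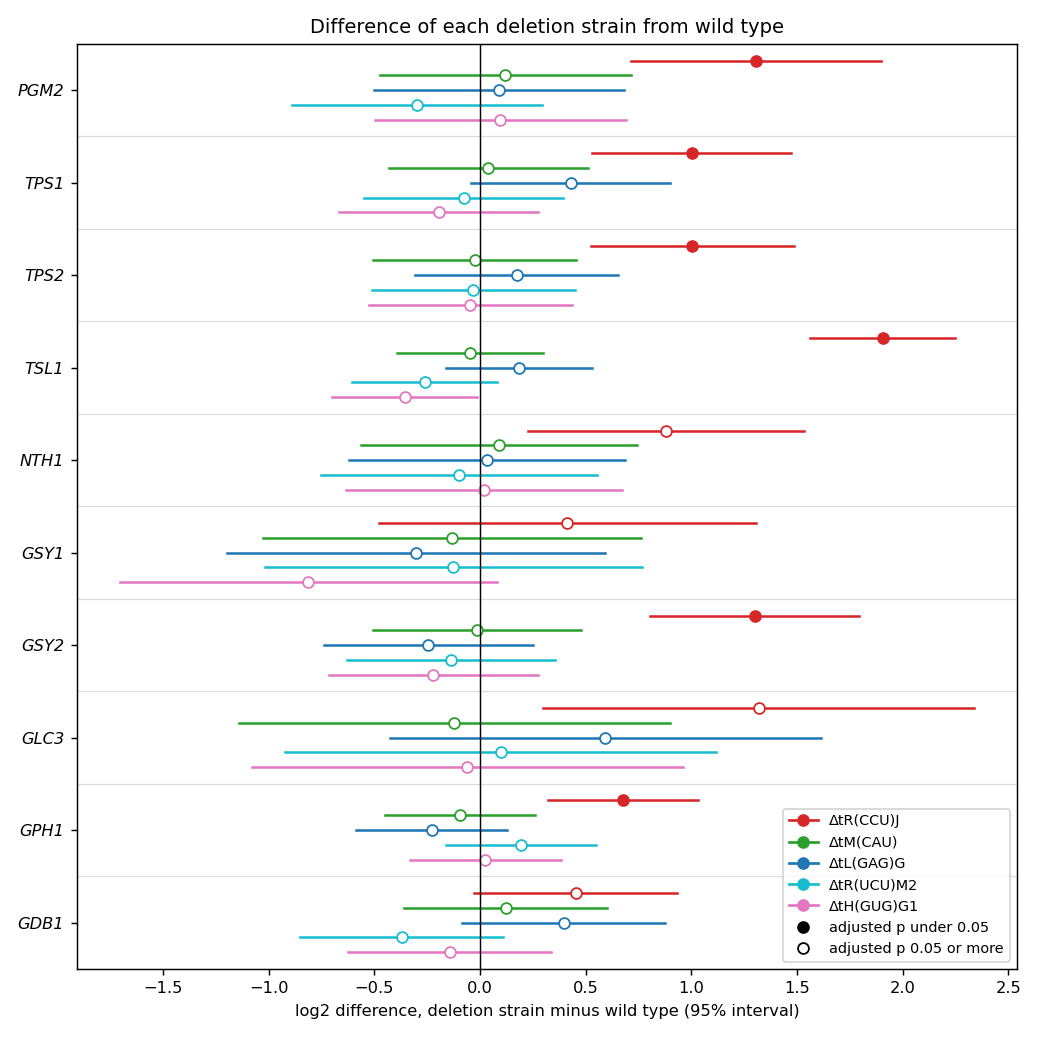
Log2 difference of each deletion strain from wild type (horizontal axis) for the 10 genes, with 95% intervals from limma; filled points have an adjusted p under 0.05. Filled points occur for ΔtR(CCU)J alone, at 6 genes with log2 differences of 0.68 to 1.91.

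The number of calls depended on single arrays and on scaling. It was 2 when replicate 1 of either ΔtR(CCU)J or wild type was left out, 3 when replicate 2 of either was left out, 3 with each array centred on its median, 2 after quantile normalization, and 0 in a model of the 5 arrays compared, where 8 genes had an unadjusted p under 0.05. Over all genes, that model of the arrays compared called 3 higher and 2 lower. With the replicate number as a block, NTH1 (adjusted p = 0.0171) and GLC3 (adjusted p = 0.0444) were called as well, and TPS2 was not (adjusted p = 0.0508, limma). Only wild type has a replicate 3, so this block takes that array, the highest of wild type for NTH1 and GLC3, out of the difference. It also sets ΔtR(CCU)J replicate 2 beside wild-type replicate 2, although by correlation it lay nearest to wild-type replicate 3.

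Set against the nearest wild-type array, all 10 genes were higher on both ΔtR(CCU)J arrays. The share of all genes that were higher in this comparison was not counted. The median gene had log2 signals of 9.29 and 9.19 on ΔtR(CCU)J replicates 1 and 2, against 9.07 and 9.05 on those wild-type arrays. The differences of the 10 genes thus include a shift shared by genes at large. Log2 differences ran from 0.33 for GSY1 to 1.83 for TSL1 on replicate 1, with a median of 1.12, and from 0.14 for GDB1 to 1.81 for TSL1 on replicate 2, with a median of 1.0. The 2 values of TSL1 were nearly equal, as were those of TPS2 (1.11 and 1.19) and GPH1 (0.69 and 0.77), while those of NTH1 (1.02 and 0.53) and GDB1 (0.71 and 0.14) were less so. With the nearest wild-type array as a batch block, 8 of the 10 genes were called, all but GSY1 and GDB1, while the calls over all genes went up as well, to 932 higher and 295 lower, where the model with no block had 361 and 105.

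**Figure D3:**
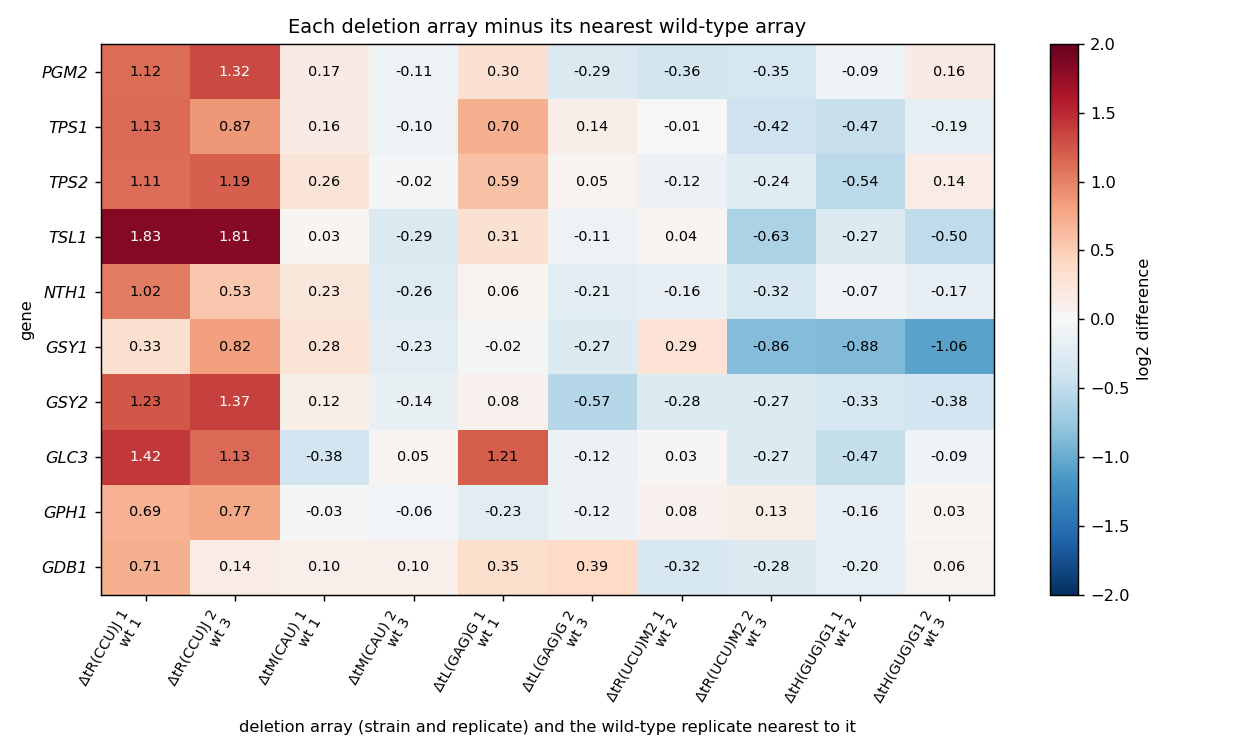
Log2 difference of each deletion array (columns) from the wild-type array nearest to it (named under the column) for the 10 genes (rows); red is higher and blue lower than that wild-type array. The 2 ΔtR(CCU)J columns are positive throughout, with medians of 1.12 and 1.0, and the medians of the other 8 columns lie between -0.30 and 0.30. No column is adjusted for the median signal of its arrays, which was higher in ΔtR(CCU)J than in wild type.

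ΔtR(CCU)J also stood apart from the other SC strains, in a difference of means that uses no wild-type array, although the error is pooled over all 13 arrays (4 genes were called without wild-type replicate 3). Relative to the mean of ΔtM(CAU) and ΔtL(GAG)G, 5 of the 10 genes were called higher and 0 lower, against 3.51% of all genes higher and 1.36% lower (191 and 74 genes, or 83 and 102 with each array centred on its median). TSL1 had a log2 difference of 1.84 (standard error 0.15, adjusted p = 0.00137, limma), with log2 signals of 9.47 and 9.74 in ΔtR(CCU)J, against 7.67 and 7.63 in ΔtM(CAU) and 7.94 and 7.82 in ΔtL(GAG)G. GSY2 had a log2 difference of 1.43 (standard error 0.21, adjusted p = 0.0127, limma), with 8.76 and 9.43 in ΔtR(CCU)J, against 7.65 and 7.92 in ΔtM(CAU) and 7.61 and 7.49 in ΔtL(GAG)G. The remaining called genes were PGM2 (log2 difference 1.20), TPS2 (0.93) and GPH1 (0.84). Both ΔtR(CCU)J arrays lay above all 4 other SC arrays for 9 genes, all but GDB1, as they did for 25.8% of all genes, and below them for 0, as for 11.3% of all genes. TPS1, at a log2 difference of 0.77, missed the threshold here (adjusted p = 0.0587, limma), and its 2 ΔtL(GAG)G arrays, both at 9.74, were above every wild-type array. The log2 difference of GDB1 was 0.19 and became -0.03 after quantile normalization. The count fell to 2 after quantile normalization or in a model of only the 6 SC arrays, and it was 1 without ΔtM(CAU) replicate 1 and 2 without any other SC array, TSL1 being called each time. With the replicate number as a block it was 7, with TPS1 (adjusted p = 0.0418) and NTH1 (adjusted p = 0.0226, limma) in addition.

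In the other 4 deletion strains, no gene of the pathway was called against wild type by limma. In ΔtM(CAU) the log2 differences lay between -0.13 for GSY1 and 0.12 for GDB1, with a median of -0.02, and 0.0367% of all genes were called higher and 0% lower. For 0 of the 10 genes did both ΔtM(CAU) arrays lie on one side of all wild-type arrays, where 13.6% of all genes lay above and 6.04% below. In ΔtL(GAG)G they lay between -0.30 for GSY1 and 0.59 for GLC3, with a median of 0.13, where 0.0367% of all genes were called higher and 0.0184% lower. Both ΔtL(GAG)G arrays were above all wild-type arrays for TPS1 and GDB1, whose log2 differences were 0.43 (95% interval -0.04 to 0.90) and 0.40 (95% interval -0.08 to 0.88), an order seen for 15.7% of all genes, and 0 genes lay below them, as 10.8% of all genes did. In neither strain did any of the 10 genes have an unadjusted p under 0.05.

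In the MC strains, 0% of all genes were called in either direction against wild type. The log2 differences in ΔtR(UCU)M2 ran from -0.37 for GDB1 to 0.19 for GPH1, with a median of -0.11, and none had an unadjusted p under 0.05. GDB1 was at log2 signals of 7.64 and 7.64 in ΔtR(UCU)M2, below all 3 wild-type arrays, an order seen for 5.93% of all genes, and GPH1 was at 7.04 and 7.05, above all 3, as for 4.13% of all genes. In ΔtH(GUG)G1 the log2 differences ran from -0.81 for GSY1 to 0.10 for PGM2, with a median of -0.10. Both ΔtH(GUG)G1 arrays lay below all wild-type arrays for TSL1 and GSY1, as they did for 4.46% of all genes, and above them for 0 of the 10 genes, as for 5.14% of all genes. TSL1 alone had an unadjusted p under 0.05, with a log2 difference of -0.36 (95% interval -0.70 to -0.01). GSY1 was unsteady between replicates: its log2 signals of 7.47 and 6.0 in the 2 ΔtR(UCU)M2 replicates spanned more than its 3 wild-type arrays. The median of the 10 genes in ΔtH(GUG)G1 lay between -0.30 without its replicate 2 and 0.10 without its replicate 1. Over these 4 strains the 95% intervals of the log2 difference from wild type spanned -1.14 to 1.61 for GLC3 and -1.71 to 0.77 for GSY1, but -0.70 to 0.53 for TSL1, which lies below the interval of TSL1 in ΔtR(CCU)J (1.56 to 2.25).

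Between the study's classes, TSL1 was called higher in SC than in MC, the only one of the 10 genes, against 0.165% of all genes called higher and 0.0551% called lower (9 and 3 genes, or 18 and 45 with each array centred on its median). Its log2 signals had a lowest, median and highest value of 7.63, 7.88 and 9.74 on the 6 SC arrays, against 7.26, 7.36 and 7.57 on the 4 MC arrays. The classes did not overlap, but within SC the 2 ΔtR(CCU)J arrays lay well above the other 4, which spanned 7.63 to 7.94. The log2 difference of 0.99 (standard error 0.11, adjusted p = 0.00631, limma) became 0.38 (adjusted p = 0.292) with ΔtR(CCU)J left out, when 0 of the 10 genes were called. GDB1 behaved otherwise: its lowest, median and highest log2 signals were 8.01, 8.28 and 8.87 in SC, against 7.64, 7.70 and 7.98 in MC, with no overlap, as for 5.47% of all genes (2.15% in the opposite order), and a log2 difference of 0.58 that was not called (adjusted p = 0.0647, limma). The log2 differences of the 10 genes had a median of 0.55, against 0.11 for all genes, and all were positive, as were those of 3568 of the 5446 genes. However, that of GPH1, 0.01, turned to -0.14 with arrays centred on their medians and to -0.26 after quantile normalization. With ΔtR(CCU)J left out, this median was 0.21. With the replicate number as a block TPS1 was also called (log2 difference 0.63, adjusted p = 0.0476, limma). That block sets replicate 1 of the SC strains beside replicate 1 of the MC strains, which by correlation lay nearest to different wild-type arrays. With strain as a random block TSL1 was not called (adjusted p = 0.152). The call of TSL1 was lost without ΔtR(UCU)M2 replicate 2 or without ΔtH(GUG)G1 replicate 1, and 3 genes, TSL1, TPS1 and PGM2, were called without ΔtH(GUG)G1 replicate 2, when the calls over all genes went up to 438 higher and 211 lower.

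The other genes around the pathway are set beside the 6.63% of all genes called higher and 1.93% called lower in ΔtR(CCU)J. Of 4 other trehalose genes, 1 was called higher than in wild type, the α-glucoside transporter gene MAL11 (log2 difference 0.49, adjusted p = 0.0369, limma), and the median of the 4 log2 differences was 0.60. All 4 were positive with an unadjusted p under 0.05 (limma), where 3652 of the 5446 genes were positive and 1238 were higher at that level. Both ΔtR(CCU)J arrays lay above all wild-type arrays for each of the 4, as for 31.6% of all genes. Of 14 other glycogen genes, 1 was called higher, PIG2, which encodes a putative regulatory subunit of the phosphatase that acts on glycogen synthase (log2 difference 0.54, adjusted p = 0.0340, limma), with a median of 0.29 over the 14, a share called near that of all genes. Of 6 genes that supply glucose phosphates and UDP-glucose, 2 were called higher. The hexokinase gene HXK1 had log2 signals of 10.01 and 10.88 in ΔtR(CCU)J, against 7.97, 8.0 and 8.77 in wild type, and the glucokinase gene GLK1 had 9.73 and 10.32 in ΔtR(CCU)J, against 8.63, 8.87 and 9.22 in wild type. Neither overlapped, an order seen for 31.6% of all genes. The log2 differences were 2.20 (standard error 0.53, adjusted p = 0.0374, limma) for HXK1 and 1.12 (standard error 0.26, adjusted p = 0.0365, limma) for GLK1. Both were also called higher than in the other SC strains, against 3.51% of all genes. Over 21 alternatives of that comparison, the call was kept 15 times for HXK1 and 14 for GLK1. Both calls were lost whenever an SC array was left out. HXK2, the hexokinase gene that predominates on glucose, and PGM1, the paralog of PGM2, were picked out after their values were seen. They had log2 differences of -0.28 and 0.04, so that within the hexose kinases and within the phosphoglucomutases the paralogs gave different values. No gene of these lists was called in the other 4 strains or between SC and MC. Over 21 alternatives the calls against wild type were kept 7 times for MAL11, 7 for PIG2, 8 for HXK1 and 12 for GLK1. The log2 difference was always positive, and all 4 of these calls were lost without either ΔtR(CCU)J array and without wild-type replicate 1 or 2.

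**Figure D4:**
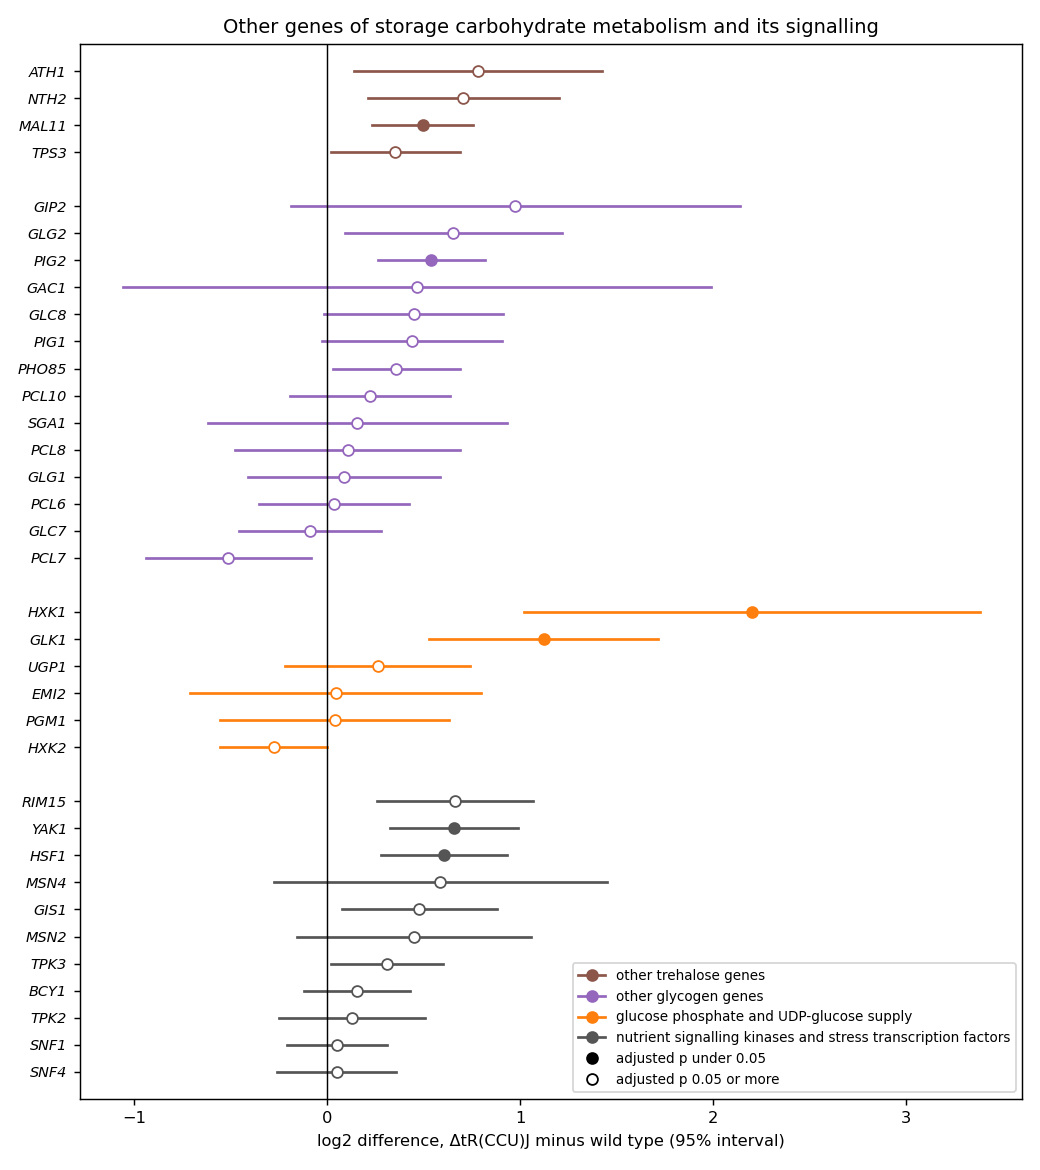
Log2 difference of ΔtR(CCU)J from wild type (horizontal axis) with 95% intervals for the other genes of storage carbohydrate metabolism, its precursors and its signalling, coloured by list; filled points have an adjusted p under 0.05. HXK1, at 2.20, and GLK1, at 1.12, lie farthest to the right among the filled points.

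Of 12 listed kinases and transcription factors of nutrient and stress signalling, 11 were measured. YAK1, a kinase that antagonises growth on glucose, was called higher in ΔtR(CCU)J than in wild type with a log2 difference of 0.66 (adjusted p = 0.0324), as was the heat shock factor gene HSF1 with 0.60 (adjusted p = 0.0374, limma). These are 2 of 11, against 6.63% of all genes. All 11 log2 differences were positive, with a median of 0.45, where 3652 of the 5446 genes were positive and the median of all genes was 0.17. Of 20 general stress genes, 18 had a positive log2 difference, with a median of 1.12. An unadjusted p under 0.05 (limma) was reached by 12 of the 20, all higher, and by 1238 of the 5446 genes in that direction. Of the 20, 2 were called, against 6.63% of all genes, the chaperone gene SSE2 (0.96, adjusted p = 0.0289) and YGP1, a secreted glycoprotein gene (1.66, adjusted p = 0.0493, limma). Summed over the 20 genes, the signal was 12727 to 13092 in ΔtR(CCU)J, against 7141 to 10625 in ΔtM(CAU) and 6402 to 6925 in ΔtL(GAG)G. It was 5393 to 6515 in the MC strains and 4424 to 8110 in wild type. Such a sum weights bright genes most. Relative to the mean of the other SC strains, 18 of the 20 had a positive log2 difference, as had 3362 of the 5446 genes. HSP104 and SSA4, picked out after their values were seen, had higher strain means in ΔtM(CAU). HSP104 had log2 signals of 11.10 and 11.40 there, against 10.36 and 11.16 in ΔtR(CCU)J, and SSA4 9.68 and 9.98, against 8.37 and 8.38. Among 6 sporulation markers, 1 was called higher in ΔtR(CCU)J than in wild type, against 6.63% of all genes: IME2, a meiosis kinase gene (1.05, adjusted p = 0.0174, limma). Of the 6, 4 had a positive log2 difference, and the median was 0.29. The summed signal of the 6 was 431 to 668 in ΔtR(CCU)J, against 348 to 429 in wild type. SPS4 and SPS1 were picked out after their values were seen. SPS4 had log2 signals of 5.91 and 5.47 in ΔtR(CCU)J, below the 5.99 to 6.46 of wild type, and SPS1 had 7.58 and 5.30 in ΔtR(CCU)J, against 5.70 to 6.24 in wild type, so that its 2 replicates fell on opposite sides. Over 21 alternatives the calls were kept 8 times for YAK1, 10 for HSF1, 16 for SSE2, 8 for YGP1 and 18 for IME2, and none of these 5 was called without ΔtR(CCU)J replicate 1. None of the 6 sporulation markers was at or below background on all arrays. The 6 a-cell markers had summed signals of 321 to 474 in ΔtR(CCU)J, 471 to 531 in ΔtM(CAU) and 343 to 353 in ΔtL(GAG)G. Their sums were 274 to 409 in the MC strains and 283 to 342 in wild type. Of the 6, 0 were called between ΔtR(CCU)J and wild type.

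Signals of α-cell markers were also low in ΔtR(CCU)J. SAG1, the α-agglutinin gene, had log2 signals of 10.16 and 10.64 in ΔtR(CCU)J, against 11.72 and 11.72 in ΔtM(CAU), 12.13 and 11.74 in ΔtL(GAG)G and 11.58, 12.09 and 10.91 in wild type. It was called lower than in the other SC strains (log2 difference -1.42, adjusted p = 0.0378, limma), as were 1.36% of all genes. Against wild type it was not called (-1.12, adjusted p = 0.0665, limma). Both ΔtR(CCU)J arrays lay below all 4 other SC arrays for all 4 α-cell markers, as for 11.3% of all genes, with a median log2 difference of -0.68. They lay below all wild-type arrays for STE3 and SAG1, as for 12.5% of all genes. Against wild type the median of the 4 was -0.62, with MF(ALPHA)1 the one marker that was higher. Of the sporulation markers, IME2 (log2 difference 1.21, adjusted p = 0.0120) and NDT80, a transcription factor gene of meiosis (1.53, adjusted p = 0.0240, limma), were called higher than in the other SC strains, against 3.51% of all genes. Over 21 alternatives these calls were kept 14 times for SAG1, 20 for IME2 and 15 for NDT80, and all 3 were lost without ΔtR(CCU)J replicate 1. The part of other cell states in the values of the 10 genes was not tested.

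Over the 13 arrays the 10 genes varied together to different degrees. Pearson's r of log2 signal ranged from -0.03, between GPH1 and GDB1, to 0.92, between TSL1 and GSY2, with a median of 0.75 over the 45 pairs. Much of this came with the 2 ΔtR(CCU)J arrays: over the other 11 arrays the median r was 0.30 and the range -0.86 to 0.82. Over 13 arrays GSY1 and GDB1 were least like the rest, and the 28 pairs of the other 8 genes had r between 0.63 and 0.92 over 13 arrays, but between -0.51 and 0.82, with a median of 0.39, over the 11 arrays without ΔtR(CCU)J. These arrays share strains and batches, so the values describe this set only. The 5 genes whose log2 signals followed the mean of the 10 most closely over the 13 arrays were GAD1, the glutamate decarboxylase gene (r = 0.989), ROM1, encoding an exchange factor for Rho1 (0.983), GLK1 (0.977), YDL086W (0.977) and the vacuolar calcium ATPase gene PMC1 (0.976). The log2 difference of GAD1 between ΔtR(CCU)J and wild type, 1.88, is a description only, because these genes were chosen by a likeness that rests on the same arrays.

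For some of the genes, replicates differed in the same direction in several strains, and the share of all genes that did so was not counted. Arrays of the same replicate number deviated together over genes at large, so these orders need not be particular to the 10 genes. NTH1 and GPH1 were higher on the second replicate in all 5 deletion strains, by 0.28 to 0.60 and by 0.02 to 0.36 on the log2 scale. PGM2, GSY2 and GLC3 were higher on it in 4 strains, whereas GDB1 was higher in 1. Across the 10 genes, the nearest-array medians of the 8 arrays of the other strains ranged from -0.30 to 0.30, on both sides of 0 and below the 1.0 and 1.12 of the ΔtR(CCU)J arrays.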

How the data were processed

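Total RNA was labelled from poly(T)-primed cDNA and hybridised to Affymetrix yeast 2.0 arrays. The study's methods describe RMA background adjustment and normalization between arrays, and the submitters' processing notes name GCRMA. The deposited values are linear intensities, 1 per probe set, with the same trimmed mean of 500.2 to 500.3 on every array, which neither name would give. The authors' deposited intensities were analysed as log2, with no offset and no further scaling, the form for which the tests were planned. Of 10928 probe sets, 5495 pair with 1 *S. cerevisiae* protein-coding gene and measure 5446 genes through the platform annotation (the brightest by mean signal for 47 genes with several), and 1746 *S. pombe* probe sets gave the background. No gene was filtered out, and 96.5 to 98.3% of genes lay above background.

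Strain means were estimated jointly from the 13 arrays in a linear model (limma 3.58.1, R 4.3.3), and differences were tested two-sided, with Benjamini-Hochberg adjustment over the 5446 genes and calls at an adjusted p under 0.05. The number of arrays limits the precision. The steps were tested on simulated data. Named genes were all 10 enzyme genes, called members of the other lists (at most 4 a list by smallest p), and the 5 genes most correlated with the mean of the 10. The genes, lists and tests were chosen with earlier results of these data known.

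Whether replicate numbers pair the arrays was checked over 3992 genes. In each of the 10 pairs of deletion strains, arrays of the same number deviated together (r of 0.125 to 0.672), so the replicate number was also entered as a block. The pairing is inferred from the data, not from a label. Other alternatives were quantile normalization, median centring, averaging probe sets, leaving out dim genes, models restricted to the arrays compared, a prior both trended and robust, the nearest wild-type array as a batch block, single replicates, strain as a random block, and leaving out each array or strain. Sequences of promoters and proteins were not analysed here.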

Additional observations from a re-analysis of the deposited data

Results flagged for a closer look

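GSY1 on the 6 SC arrays had 1 array far from the others: ΔtR(CCU)J replicate 2, with a log2 signal of 7.68, where the other 5 lay between 6.53 and 6.87. The same test was run on 20 sets of arrays (10 genes in SC and in MC). Chance picks out about 1 in 20 where all arrays of a set come from 1 population. Each set here mixes strains, so that rate does not apply to the flagged array.

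Several differences between strains or classes were themselves past the test. TSL1 differed between SC and MC by 0.99 on the log2 scale, a call that was lost with strain as a random block (adjusted p = 0.152), with the inferred batch as a block (adjusted p = 0.0509) and without ΔtR(CCU)J (0.38, adjusted p = 0.292, limma). ΔtR(CCU)J differed from the mean of ΔtM(CAU) and ΔtL(GAG)G by 1.84 for TSL1, 1.43 for GSY2, 1.20 for PGM2, 0.93 for TPS2 and 0.84 for GPH1.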

How the results depend on the processing

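No result changed its direction past the test under any alternative. For ΔtR(CCU)J against wild type, the 6 genes called higher became 3 with arrays centred on their medians, 2 after quantile normalization, 0 in the fit of only the arrays compared, and 2 to 6 when 1 array was left out. Their median log2 difference of 1.0 became 0.80 under median centring and lay between 0.86 and 1.18 with 1 array left out. TSL1 kept its call in 20 of 21 alternatives, GSY2 in 19, PGM2 and TPS1 in 15, TPS2 in 11 and GPH1 in 10. Over all genes, 361 higher and 105 lower became 75 higher and 153 lower under median centring. For ΔtR(CCU)J against the other SC strains, the 5 genes called became 2 after quantile normalization, 2 in the fit of only the arrays compared, 8 with the inferred batch as a block, and 1 to 6 with 1 array left out, with a median of 0.71 to 1.08. Over all genes, 191 higher and 74 lower became 83 higher and 102 lower under median centring. For SC against MC, the 1 gene called became 3 with a trended robust prior, 2 without ΔtM(CAU), and 0 with the inferred batch as a block, within replicate 1, within replicate 2, with strain as a random block, without ΔtR(CCU)J and without ΔtH(GUG)G1, and 0 to 3 with 1 array left out. Its median of 0.55 became 0.34 after quantile normalization, 0.21 without ΔtR(CCU)J, and 0.44 to 0.62 with 1 array left out. Over all genes, 9 higher and 3 lower became 18 higher and 45 lower under median centring, and 155 and 50 with the replicate block. In the other 4 strains the count stayed at 0 under all 21 alternatives, and the median with 1 array left out lay between -0.12 and 0.10 in ΔtM(CAU), 0.03 and 0.26 in ΔtL(GAG)G, -0.26 and -0.02 in ΔtR(UCU)M2, and -0.30 and 0.10 in ΔtH(GUG)G1.

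With replicate number as a blocking term, 7 genes were called in ΔtR(CCU)J against wild type, 7 against the other SC strains and 2 between SC and MC. The calls it changed were those of NTH1, GLC3 and TPS2 against wild type, TPS1 and NTH1 against the other SC strains, and TPS1 between SC and MC. Wild-type arrays have no stated pairing with the deletion arrays. Only wild type has a replicate 3, so in the comparison with wild type the block takes that array out of the difference. Between SC and MC the block joins first replicates that by correlation lay nearest to different wild-type arrays.

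With 2 arrays a strain, the error rests on the pooled spread of the 6 strains, and where 1 array of a strain was left out, the lone array takes its error from the rest. Batches are inferred from the signals themselves. A difference between strains includes any difference other than the deleted gene, as MF(ALPHA)1 shows for SC.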
